A study of Mus musculus with 12 samples.

Results

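The NADPH oxidases and superoxide dismutases were followed through 9 genes: the oxidase catalytic subunits Nox1, Nox4 and Cybb, the oxidase subunits Cyba, Ncf1 and Ncf4, and the dismutases Sod1, Sod2 and Sod3. Members were all probes of the array files, control spots left out, that carried one of these gene names, which gave 13 of 55681 probes and 9 of 34796 gene names. Of these, 12 probes passed the filter on dim signal and all 9 genes had at least 1 probe tested. RNA was measured on 12 one-colour arrays, 1 per sample, of mouse aorta on day 3. The tissue was the segment of 10 mm above the right renal artery of male C57BL/6J mice aged 11 to 14 weeks. The labels formed 4 groups of 3. DMSO mice received dimethylsulfoxide, the vehicle, and the titles of these samples begin with Pre. Rapamycin mice received the mTOR inhibitor rapamycin at 2 mg/kg/day in DMSO. BA+DMSO mice received the challenge, which was beta-aminopropionitrile (BAPN, an inhibitor of collagen and elastin crosslinking) at 150 mg/kg/day with angiotensin II (AngII) at 1 µg/kg/min, together with the vehicle. BA+rapamycin mice received the same challenge and rapamycin. All 4 groups thus received DMSO, and in the model the challenge leads to aortic dissection within the following days.

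NADPH oxidases pass electrons from NADPH across a membrane to oxygen and so form superoxide. In phagocytes the enzyme is the pair of membrane proteins gp91phox (Cybb) and p22phox (Cyba), which is switched on when the cytosolic subunits p47phox (Ncf1) and p40phox (Ncf4), among others, and the small GTPase Rac2 join it. Nox1 is a homologue found in smooth muscle cells and colon, with its own organizer (Noxo1) and activator (Noxa1). Nox4, abundant in the vessel wall, needs p22phox but no cytosolic subunit and releases mostly hydrogen peroxide. Superoxide dismutases turn superoxide into hydrogen peroxide in the cytosol (Sod1, a copper and zinc enzyme), in mitochondria (Sod2, a manganese enzyme) and outside the cell (Sod3, a copper and zinc enzyme secreted in quantity by vascular smooth muscle). Angiotensin II is a classical activator of vascular NADPH oxidases.

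Values are log2 processed signals relative to the 75th percentile of the same array, so that 0 is the signal of that percentile. A level of a probe can be compared between arrays but not with that of another probe. The 75th percentile itself was 221 to 280 intensity units for DMSO arrays, 257 to 337 for rapamycin, 78.1 to 246 for BA+DMSO and 74.6 to 109 for BA+rapamycin. The BA+rapamycin arrays were thus dimmer than all rapamycin arrays, while under vehicle the ranges overlapped, since BA+DMSO 3 (246) was brighter than DMSO 3 (221). The lowest value well above background lay between -4.52 and -3.71 on unchallenged vehicle arrays, -4.25 and -3.88 on rapamycin arrays, -3.95 and -2.61 on BA+DMSO arrays and -2.95 and -2.28 on BA+rapamycin arrays, which bears on the dim genes Cybb and Nox1. Correlations between arrays of a group, across all probes with a value on every array, tested or not, were lowest in BA+DMSO (0.949 to 0.974). DMSO 1 to 3 and rapamycin 1 lay on slide 1, and the other 8 arrays lay on slide 2. All 8 smooth muscle markers were well above background on every array, as in a tissue with smooth muscle, which does not single out aorta.

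One question was which members differed between challenged and unchallenged aortas. With vehicle (BA+DMSO minus DMSO), 4 of the 9 members were called higher (Cybb, Cyba, Ncf1 and Ncf4), 1 lower (Nox4) and 4 in neither direction (limma, Benjamini-Hochberg adjusted p under 0.05). Among all 20026 genes tested, 21.4% were called in this contrast, 10.4% higher and 11% lower. With rapamycin (BA+rapamycin minus rapamycin), 4 members were called higher (Cybb, Nox1, Ncf1 and Ncf4), 2 lower (Nox4 and Sod1) and 3 in neither direction. The background of this contrast was 42.7% of genes, 19.8% higher and 22.9% lower. The median difference of the 9 members was 0.30 (log2) in each of these contrasts, against -0.02 over all genes with vehicle and -0.07 with rapamycin.

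**Figure D1:**
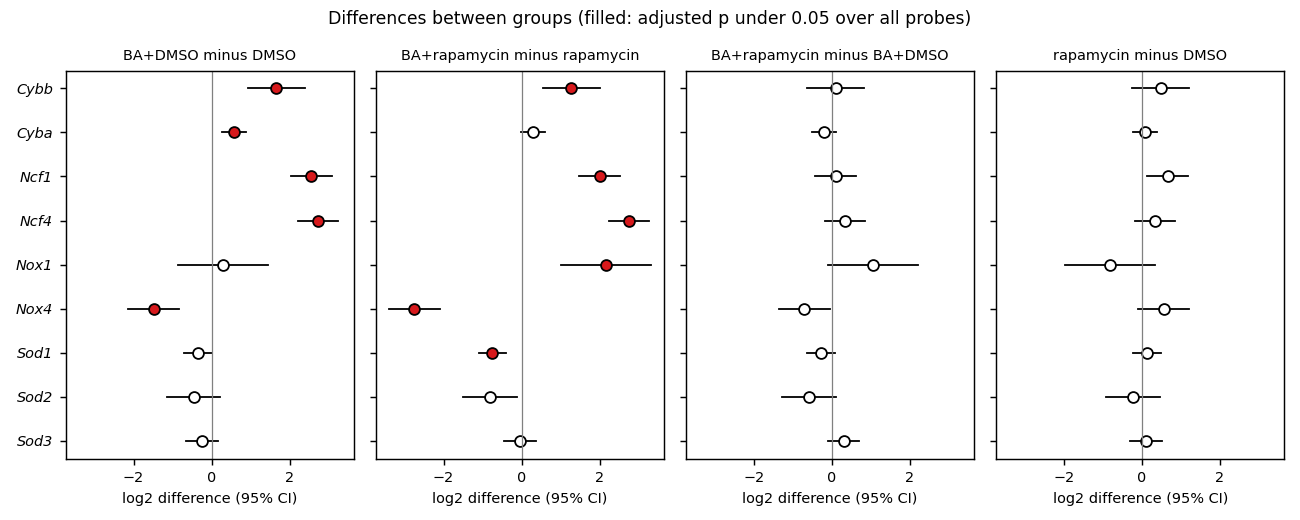
Log2 difference of the 9 member genes in 4 contrasts, with the 95% confidence interval of the limma fit (3 arrays per group). Filled points have an adjusted p under 0.05 over all tested probes. Ncf1, Ncf4 and Cybb lie to the right and Nox4 to the left in both contrasts of the challenge, and no point is filled in the contrasts of rapamycin.

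Ncf1, which organizes the assembly of the phagocyte oxidase, was higher in every challenged aorta. Its log2 values were -2.15, -2.34 and -2.57 in DMSO and 0.80, -0.09 and -0.09 in BA+DMSO. They were -1.65, -1.78 and -1.65 in rapamycin and 0.14, 0.47 and 0.32 in BA+rapamycin. No challenged array overlapped with an unchallenged one. The difference was 2.56 (SE 0.24, adjusted p 0.000194) with vehicle, a 5.90-fold rise, and 2.00 (SE 0.24, adjusted p 0.00035) with rapamycin, a 4.01-fold rise. The probe lies on mm9 chromosome 5, 134696380 to 134696439, minus strand.

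Ncf4, the subunit that binds phosphoinositides on phagosomes, had the largest rise of the 9 members in both contrasts of the challenge. Values were -0.07, -0.59 and -0.76 in DMSO and 2.65, 2.03 and 2.11 in BA+DMSO. With rapamycin they went from 0.04, -0.09 and -0.39 to 2.77, 2.62 and 2.43. The challenged and unchallenged arrays were more than 1 log2 unit apart. The rise was 6.66-fold with vehicle (log2 2.74, SE 0.23, adjusted p 0.000126) and 6.74-fold with rapamycin (log2 2.75, SE 0.23, adjusted p 8.22e-05). The probe lies on chromosome 15, 78092903 to 78092962, plus strand.

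Cybb, the catalytic subunit of the phagocyte oxidase, was dim on all arrays. Values were -3.82, -4.29 and -3.22 in DMSO and -1.73, -2.21 and -2.41 in BA+DMSO, where DMSO 2 and BA+DMSO 2 were not well above background. In rapamycin they were -3.51, -2.79 and -3.58, and in BA+rapamycin -1.60, -2.05 and -2.42. The groups did not overlap in either contrast. Cybb passed the filter on dim signal only through the rapamycin and BA+rapamycin groups. With only DMSO and BA+DMSO in the fit it was therefore not tested. Cybb rose by 1.66 (SE 0.33, adjusted p 0.00705, 3.16-fold) with vehicle and by 1.27 (SE 0.33, adjusted p 0.0126, 2.41-fold) with rapamycin. A common floor of -2.28 was the highest of the 12 lowest values well above background. With all values raised to it, the differences were 0.21 (adjusted p 0.475) and 0.31 (adjusted p 0.21). Both calls were thus lost, and both rises rest on signals that the dimmest arrays could not have measured. Without rapamycin 3 the adjusted p with rapamycin was 0.055. The probe lies on chromosome X, 9013216 to 9013275, minus strand.

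Cyba, the membrane partner shared by gp91phox, Nox1 and Nox4, had 2 probes that disagreed. On the brighter probe (chromosome 8, 124948726 to 124948785) values were 5.37, 5.35 and 5.30 in DMSO and 5.91, 5.96 and 5.89 in BA+DMSO. This was a rise of 1.50-fold (log2 0.58, SE 0.14, adjusted p 0.0171) with no overlap between the groups. With rapamycin the same probe went from 5.36, 5.48 and 5.43 to 5.76, 5.55 and 5.85, also with no overlap but with an adjusted p of 0.11 (log2 0.30, 95% confidence interval -0.01 to 0.61). That contrast was called without BA+DMSO 2 (adjusted p 0.0473), with array weights (0.36, adjusted p 0.00685) with the percentile taken over detected probes (0.48, adjusted p 0.0217) and with the common floor described for Cybb (0.30, adjusted p 0.0122), while normexp background correction (-0.13) and the mean of both probes (-0.20) turned its sign. The other probe, whose 60 bases span 269 bases of the genome and so cross at least 1 intron, gave 0.15 (adjusted p 0.775) and -0.70 (adjusted p 0.107). The mean of both probes gave 0.37 (adjusted p 0.211) with vehicle, and leaving out any DMSO array gave an adjusted p of 0.0521 to 0.0715 on the brighter probe. On that probe the call with vehicle was also lost with normexp background correction (0.32, adjusted p 0.161), without the filter (adjusted p 0.086) and with only the groups compared in the fit (adjusted p 0.119). The call for Cyba thus rested on 1 probe.

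**Figure D2:**
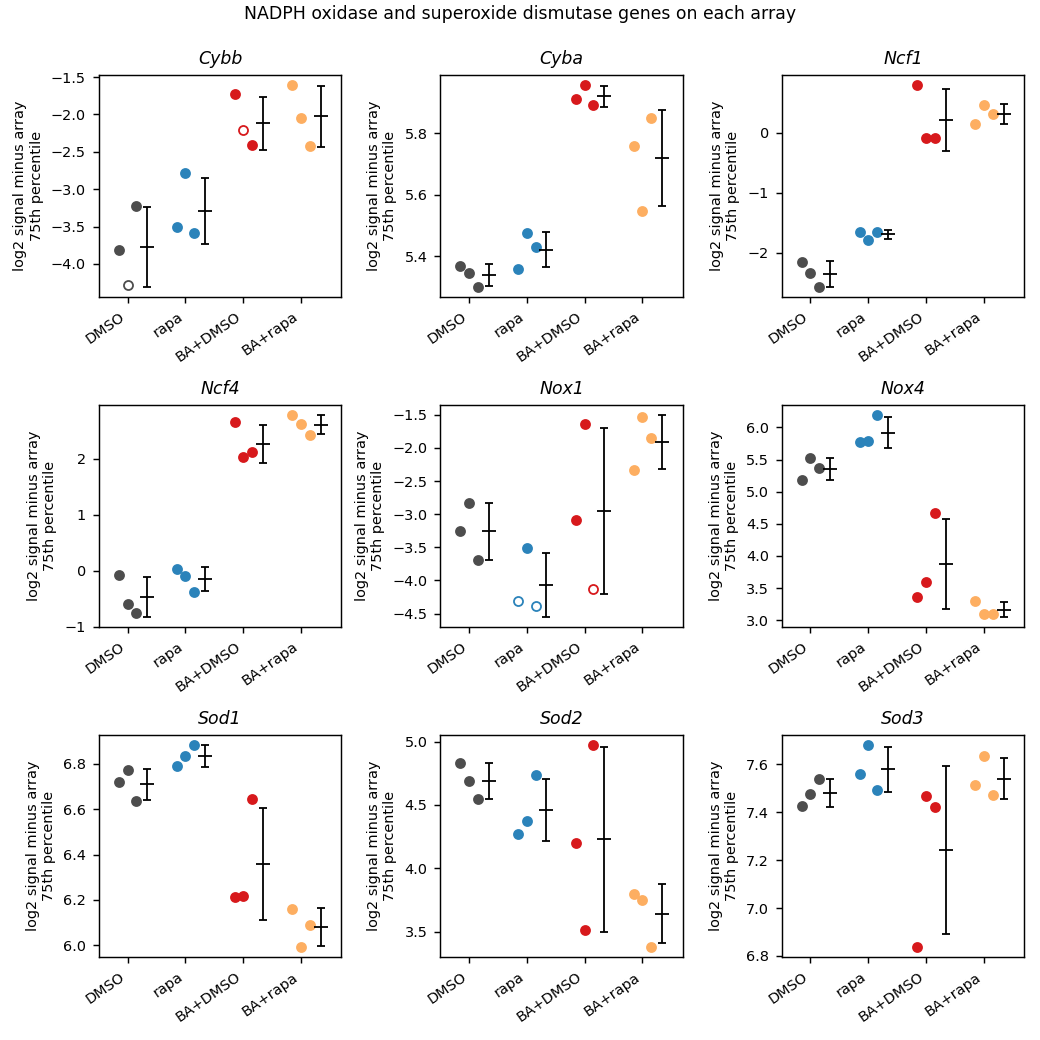
Log2 processed signal minus the array's 75th percentile for each member on each of the 12 arrays, 1 panel per gene with its own scale. Open points are not well above background, and bars are the mean ± SD of 3 arrays. Challenged and unchallenged arrays are apart for Ncf1, Ncf4, Cybb and Nox4, and BA+DMSO is the widest group for Nox1, Nox4 and the dismutases.

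Among the partners of the phagocyte enzyme, Rac2 rose. Rac2, the GTPase of blood cells, was -1.18, -1.97 and -1.83 in DMSO and 1.65, 0.51 and 1.13 in BA+DMSO. It rose 6.75-fold with vehicle (log2 2.75, SE 0.29, adjusted p 0.000334) and 4.84-fold with rapamycin (log2 2.27, SE 0.29, adjusted p 0.000471). Of 14 oxidase partners, 8 were tested, 1 rose (Rac2) and 1 fell (Noxo1) in each contrast of the challenge. Over all genes, 21.4% were called in either direction with vehicle and 42.7% with rapamycin. The tested partners without a call were Noxa1, Rac1, Rap1b, Poldip2, Hvcn1 (a proton channel) and BC017643 (now Cybc1, needed for gp91phox to mature). Hvcn1 differed by 0.58 with vehicle (adjusted p 0.06) and by -0.10 with rapamycin (adjusted p 0.698). Nox3, Duox1, Duox2, Duoxa1, Duoxa2 and Rap1a did not pass the filter on dim signal in any group.

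Markers of macrophages and red cells were called higher along with these subunits, as were some of other cell types. Of 10 macrophage markers tested, 9 were called higher with the challenge under vehicle (median difference 2.16) and 7 with rapamycin (median 1.45). The median log2 level of the list was -0.15 to 1.16 on the 6 unchallenged arrays, 1.75 to 3.25 for BA+DMSO and 2.32 to 2.43 for BA+rapamycin. The summed level, in units of the 75th percentile, ranged from 111 to 145 on unchallenged arrays, from 191 to 493 for BA+DMSO and from 381 to 507 for BA+rapamycin, and on every array but BA+DMSO 3 most of it came from 1 bright probe of Itgam. Without Itgam the sums were 22.4 to 44.5, 66.2 to 157 and 94.6 to 99.2. At least 9 of the 10 were well above background on each array. Of 9 neutrophil markers 6 were tested, and 2 were called higher in each contrast of the challenge. The neutrophil median was -1.69 to -0.55 on unchallenged arrays, -0.40 to 0.47 for BA+DMSO and -0.42 to 0.13 for BA+rapamycin. Their sums of 202 to 258, 156 to 602 and 503 to 658 came almost wholly from 1 probe of Csf3r, and without it they were 1.61 to 3.21, 3.81 to 7.44 and 3.03 to 6.10. Of 4 red cell genes tested (Hba-a1 and others), 4 were called higher with vehicle (median difference 1.87) and 3 with rapamycin (median 1.80). Their sum ranged from 18.1 to 187 on unchallenged arrays, from 114 to 234 for BA+DMSO and from 309 to 350 for BA+rapamycin. With vehicle, 2 of 6 endothelial, 2 of 6 fibroblast, 1 of 4 adipocyte and 1 of 3 lymphocyte markers were also called higher. With rapamycin these counts were 1, 2, 0 and 1, and 2 endothelial markers were called lower. Over all genes 10.4% were called higher with vehicle and 19.8% with rapamycin, where 22.9% were called lower. The part of any of these cells, or of blood in the tissue, in the rise of Cybb, Cyba, Ncf1, Ncf4 and Rac2 was not tested, and in RNA of whole tissue more cells of a type and more RNA per cell cannot be told apart.

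**Figure D3:**
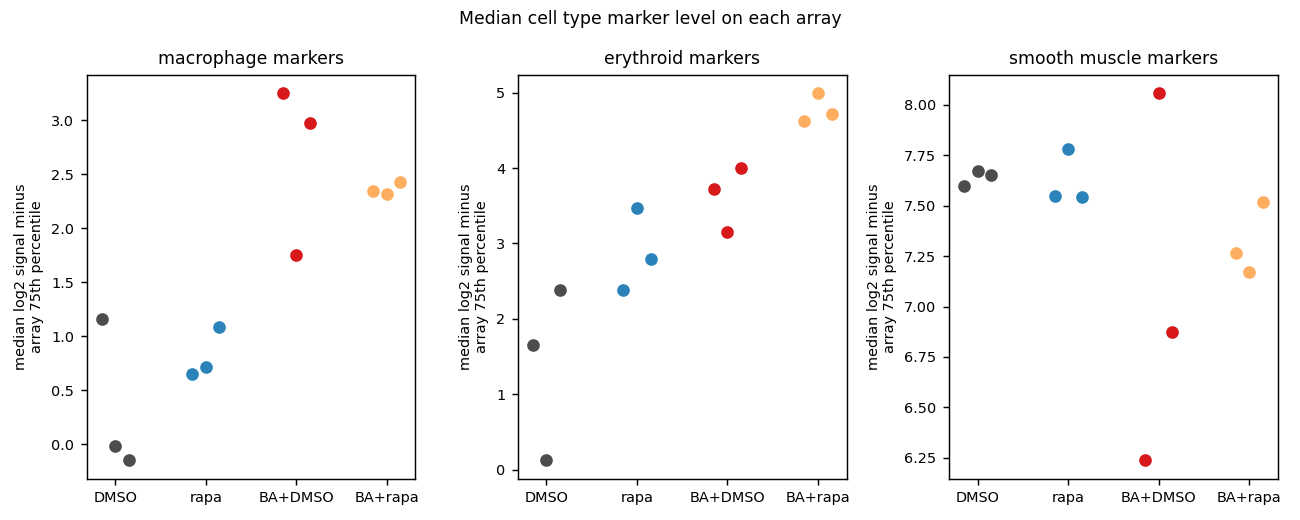
Median log2 signal minus the array's 75th percentile of 10 macrophage, 4 red cell (erythroid) and 8 smooth muscle markers on each of the 12 arrays. The macrophage median is 1.75 or more on all 6 challenged arrays and 1.16 or less on all 6 unchallenged ones, the red cell median is highest in BA+rapamycin, and the smooth muscle median varies most in BA+DMSO.

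Promoters of Ncf1 and of the dim gene Cybb, both called higher in each contrast of the challenge, are shown. They are windows of 250 bases before and 50 after the gene's start, from RefSeq on GRCm38.p6, 5′ to 3′ on the strand of the gene. The table held such a window for 7 of the 9 members. Capitals mark matches, on both strands, to the core of PU.1, a factor of myeloid cells (GAGGAA), to the GC box (GGGCGG), the AP-1 site (TGANTCA), the CCAAT box (CCAAT) and the TATA box (TATAAA). No 2 matches overlap in the windows printed. The Cybb window on chrX:9469275-9469574 holds an AP-1 match (bases 112 to 118), a CCAAT box (195 to 199) and the PU.1 core on the other strand (260 to 265). The Ncf1 window on chr5:134229576-134229875 holds 1 GC box on the other strand (209 to 214) and no PU.1 core. Among the other members, the windows of Nox1 and Sod2 also hold the PU.1 core.
Cybb promoter: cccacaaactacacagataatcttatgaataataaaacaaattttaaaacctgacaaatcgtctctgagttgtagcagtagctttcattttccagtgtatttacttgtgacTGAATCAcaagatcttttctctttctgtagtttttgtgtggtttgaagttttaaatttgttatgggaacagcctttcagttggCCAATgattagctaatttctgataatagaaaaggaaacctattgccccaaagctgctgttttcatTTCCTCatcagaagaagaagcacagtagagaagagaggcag
Ncf1 promoter: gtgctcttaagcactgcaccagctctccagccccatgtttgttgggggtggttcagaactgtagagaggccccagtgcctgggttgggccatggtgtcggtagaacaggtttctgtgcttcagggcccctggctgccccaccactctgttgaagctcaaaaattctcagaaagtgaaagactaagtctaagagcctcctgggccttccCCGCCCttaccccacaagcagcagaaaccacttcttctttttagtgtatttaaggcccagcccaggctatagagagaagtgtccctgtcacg
Among all 32851 windows of this length, 28.3% hold the PU.1 core, 35.7% the GC box, 7.81% the AP-1 site, 37.4% the CCAAT box and 13.6% the TATA box. A match here is a description of the sequence only.

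Nox4, the oxidase of the vessel wall, was the member that fell most. On its brightest probe (chromosome 7, 94547025 to 94547084, plus strand) values were 5.17, 5.52 and 5.38 in DMSO and 3.36, 3.60 and 4.67 in BA+DMSO. In rapamycin they were 5.77, 5.79 and 6.20, and in BA+rapamycin 3.30, 3.10 and 3.10. All 6 challenged arrays lay below all 6 unchallenged ones. The difference was -1.48 with vehicle (SE 0.30, adjusted p 0.00707, 2.80-fold lower) and -2.75 with rapamycin (SE 0.30, adjusted p 0.000211, 6.73-fold lower). BA+DMSO 3 was more than 1 log2 unit above the other BA+DMSO arrays, and without it the difference with vehicle was -1.88 (adjusted p 0.000274). With only the groups compared in the fit, the call with vehicle was lost (-1.48, adjusted p 0.0626).

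The other 2 Nox4 probes gave the same picture. A neighbouring probe (94547113 to 94547172) fell by 1.53 with vehicle (SE 0.29, adjusted p 0.00536) and by 2.76 with rapamycin (SE 0.29, adjusted p 0.000182). The third lies upstream at 94472458 to 94487478, a span of 15021 bases, so that its 60 bases cross at least 1 intron and read spliced RNA. On it values were 1.08, 1.25 and 1.47 in DMSO against -0.18, 0.49 and 0.64 in BA+DMSO, and 2.04, 1.96 and 1.78 in rapamycin against 0.04, -0.23 and 0.04 in BA+rapamycin. The difference on this probe was -0.95 with vehicle (SE 0.22, adjusted p 0.0148) and -1.98 with rapamycin (SE 0.22, adjusted p 0.000252). Without DMSO 2 or DMSO 3 the adjusted p with vehicle was 0.0583 or 0.0611 on it. With the brightness of the array as a covariate it was 0.0561 on this spliced probe. With only the groups compared in the fit, the adjusted p with vehicle was 0.0940 on the spliced probe and 0.0575 on the neighbouring one. The sequence of the spliced probe is shown because it places the fall in spliced RNA, apart from the adjacent pair of probes.
Nox4 probe, spliced: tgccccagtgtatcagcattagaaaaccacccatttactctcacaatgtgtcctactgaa
The Nox4 promoter window, on chr7:87246399-87246698, differs from the Cybb window in base composition, with 68.3% G and C against 35.3% (Ncf1 54.0%, median of all windows 52.7%). It holds 1 GC box in capitals (bases 227 to 232) and none of the other motifs.
Nox4 promoter: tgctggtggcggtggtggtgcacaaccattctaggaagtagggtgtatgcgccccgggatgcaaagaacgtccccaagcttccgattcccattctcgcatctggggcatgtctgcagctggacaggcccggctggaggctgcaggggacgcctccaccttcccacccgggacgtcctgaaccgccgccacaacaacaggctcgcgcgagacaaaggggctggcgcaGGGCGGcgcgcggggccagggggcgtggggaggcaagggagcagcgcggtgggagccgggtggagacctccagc

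**Figure D4:**
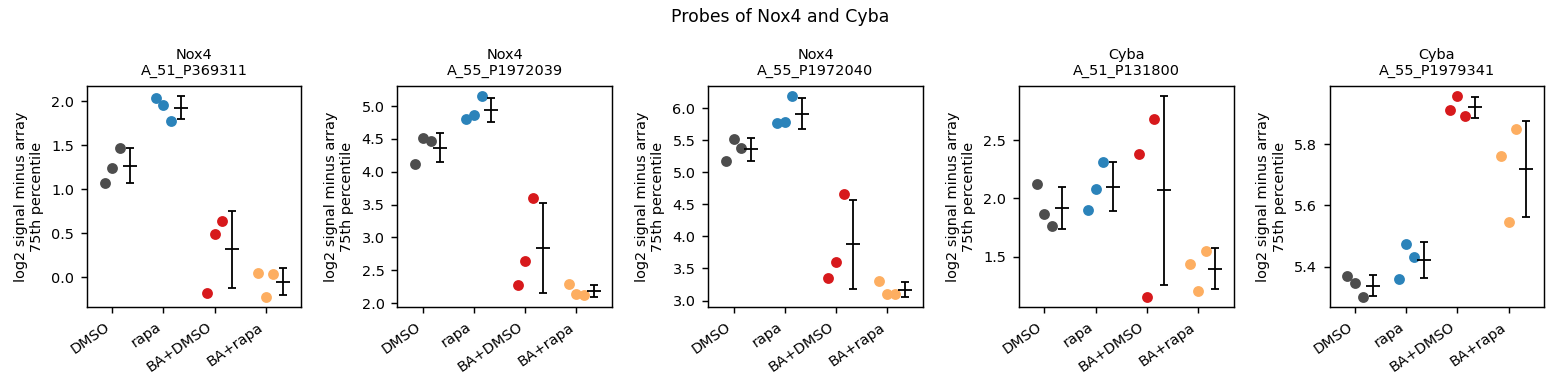
Log2 processed signal minus the array's 75th percentile for the 3 probes of Nox4 and the 2 probes of Cyba on each array, with the mean ± SD of 3 arrays. All 3 Nox4 probes are lower on challenged arrays, whereas the 2 Cyba probes differ in the order of the groups.

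Smooth muscle markers are given beside the fall of Nox4, since smooth muscle expresses it. Of the 8 markers, 1 was called lower and none higher with vehicle, and 2 were called lower and 1 higher with rapamycin, with a median difference of -0.58 and -0.35. The median log2 level of the list was 7.54 to 7.78 on the 6 unchallenged arrays, 6.24 to 8.06 for BA+DMSO and 7.17 to 7.52 for BA+rapamycin. Their summed level, carried by bright probes such as that of Tagln, went the other way with rapamycin and ranged from 2592 to 3082 on unchallenged arrays, from 2460 to 4838 for BA+DMSO and from 3482 to 4517 for BA+rapamycin. The part of smooth muscle content in the fall of Nox4 was not tested.

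Nox1, the homologue of smooth muscle and colon, was near background. On the tested probe (chromosome X, 130621740 to 130621799, minus strand) values were -3.26, -2.83 and -3.69 in DMSO and -3.09, -1.65 and -4.13 in BA+DMSO. In rapamycin they were -4.31, -3.52 and -4.39, and in BA+rapamycin -2.34, -1.53 and -1.86. Signals on rapamycin 1, rapamycin 3 and BA+DMSO 3 were not well above background. With vehicle the groups overlapped and the difference was 0.30 (SE 0.52, adjusted p 0.713, 95% confidence interval -0.85 to 1.46). With rapamycin the groups did not overlap and Nox1 rose by 2.16 (SE 0.52, adjusted p 0.00929). With the common floor that rise was 0.39 (adjusted p 0.161), and with the brightness of the array as a covariate it was 0.12 (adjusted p 0.92). All rapamycin arrays were brighter than all BA+rapamycin arrays, so that in this contrast brightness and challenge cannot be told apart and the covariate also takes up the challenge.

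The second Nox1 probe (130627582 to 130627641) was not well above background on any of the 12 arrays and was not tested. Its mean value still went from -6.09 in rapamycin to -4.74 in BA+rapamycin, and from -6.03 in DMSO to -4.91 in BA+DMSO. Both probe sequences are given because they did not detect the same signal.
Nox1 tested probe: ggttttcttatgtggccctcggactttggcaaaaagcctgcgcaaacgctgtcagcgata
Nox1 probe not above background: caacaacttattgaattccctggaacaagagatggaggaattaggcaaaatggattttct
Of the Nox1 partners, the organizer Noxo1 fell. It was 2.38, 2.76 and 2.82 in DMSO and -0.27, 2.06 and 0.93 in BA+DMSO. The groups did not overlap, and the difference was -1.75 (SE 0.48, adjusted p 0.0275). In rapamycin it was 2.76, 2.92 and 2.78 against 0.91, 0.21 and 1.41 in BA+rapamycin, a difference of -1.98 (SE 0.48, adjusted p 0.00947). With brightness as a covariate this call with rapamycin was lost (-2.51, adjusted p 0.121). The call with vehicle was lost without any 1 of the 3 DMSO arrays or BA+DMSO 1 (adjusted p 0.0548 to 0.0962), without the filter (0.0522), with only the groups compared (0.102) and with brightness as a covariate (0.0535). Its size moved with single BA+DMSO arrays, to -1.16 without BA+DMSO 1 and -2.32 without BA+DMSO 2. The activator Noxa1 differed by 0.35 (adjusted p 0.496) and 0.61 (adjusted p 0.162).

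Of the dismutases, 1 was called, Sod1, in the contrast with rapamycin. Sod1 was 6.72, 6.77 and 6.64 in DMSO and 6.21, 6.22 and 6.64 in BA+DMSO, so that BA+DMSO 3 lay within the DMSO range and the others below it. The difference of -0.35 (SE 0.16, adjusted p 0.143) was not called, but without BA+DMSO 3 it was -0.49 (adjusted p 0.0178) and with quantile normalization -0.56 (adjusted p 0.0244). With rapamycin Sod1 went from 6.79, 6.83 and 6.88 to 6.16, 5.99 and 6.09, with no overlap, and fell 1.68-fold (log2 -0.75, SE 0.16, adjusted p 0.00527). With array brightness as a covariate, which follows the challenge here, this difference was -0.34 (adjusted p 0.301).

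Sod2, the mitochondrial enzyme, was 4.83, 4.69 and 4.54 in DMSO and 4.20, 3.51 and 4.97 in BA+DMSO. BA+DMSO 3 was again the highest of its group and lay above all DMSO arrays. The difference was -0.46 (SE 0.31, adjusted p 0.316), which rested on single arrays. It was -0.83 (adjusted p 0.0227) without BA+DMSO 3 and -0.10 (adjusted p 0.791) without BA+DMSO 2. With rapamycin Sod2 went from 4.27, 4.37 and 4.73 to 3.80, 3.75 and 3.38, which did not overlap but narrowly missed the threshold (log2 -0.81, SE 0.31, adjusted p 0.0557). This contrast was called in 10 of 30 alternative settings, and with brightness as a covariate it was 0.39.

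Sod3, the extracellular enzyme, was called in neither contrast, and this depended on the normalization. It was 7.43, 7.48 and 7.54 in DMSO, 6.84, 7.47 and 7.42 in BA+DMSO, 7.56, 7.68 and 7.50 in rapamycin and 7.52, 7.63 and 7.47 in BA+rapamycin. BA+DMSO 1 was the only array below 7.4. The difference was -0.24 with vehicle (adjusted p 0.379, 95% confidence interval -0.64 to 0.16) and -0.04 with rapamycin (adjusted p 0.876, interval -0.44 to 0.37). With rapamycin it was called lower after quantile normalization (-0.61, adjusted p 0.028), in the deposited matrix (-0.57, adjusted p 0.0325) and after normexp background correction (-0.46, adjusted p 0.0355). With vehicle it was called lower after normexp (-0.52, adjusted p 0.0476) and with gene-by-gene array weights (-0.56, adjusted p 0.00636), and without BA+DMSO 1 it was -0.04 (adjusted p 0.896).

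Of 4 genes that handle copper for Sod1 and Sod3, 2 rose, where 10.4% of all genes were called higher with vehicle and 19.8% with rapamycin. Slc31a1, the copper importer of the plasma membrane, was 1.27, 1.23 and 1.14 in DMSO and 2.23, 1.69 and 2.15 in BA+DMSO. It rose by 0.81 (SE 0.17, adjusted p 0.00873) with vehicle and by 0.80 (SE 0.17, adjusted p 0.00524) with rapamycin. With only the groups compared in the fit, its call with vehicle was lost (adjusted p 0.0870). Atox1, a cytosolic copper chaperone, rose by 0.78 (SE 0.17, adjusted p 0.0106) and 0.56 (SE 0.17, adjusted p 0.0231). The call for Atox1 with rapamycin was lost without rapamycin 1, rapamycin 3, BA+rapamycin 1 or BA+rapamycin 3 (adjusted p 0.0571 to 0.0824), with quantile normalization (0.34, adjusted p 0.106), in the deposited matrix (0.33, adjusted p 0.114) and with normexp (0.11, adjusted p 0.66). The call with vehicle was lost with normexp (0.53, adjusted p 0.0928), without DMSO 2 (adjusted p 0.0543) and with only the groups compared (adjusted p 0.0874). Ccs, the chaperone that loads Sod1, differed by -0.20 (adjusted p 0.463) and -0.45 (adjusted p 0.063), and the copper pump Atp7a by 0.13 (adjusted p 0.728) and -0.14 (adjusted p 0.658).

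Of 16 enzymes that remove or handle peroxide, all were tested and 15 were called in neither direction with vehicle. Over all genes 21.4% were called with vehicle, 10.4% of them all higher. Gpx3, the secreted glutathione peroxidase, was 1.96, 1.06 and 1.70 in DMSO and 3.28, 2.94 and 2.84 in BA+DMSO. The groups did not overlap, and Gpx3 rose 2.73-fold (log2 1.45, SE 0.26, adjusted p 0.00421). With rapamycin Gpx3 differed by 0.19 (adjusted p 0.572), and the difference between the contrasts was not called (adjusted p 0.621). In the contrast with rapamycin 1 enzyme was called higher, catalase, and 1 lower, Gpx4, against 19.8% and 22.9% of all genes. Catalase was 3.97, 3.92 and 3.60 in rapamycin and 6.38, 6.95 and 6.62 in BA+rapamycin on the probe that stood for it (log2 2.82, adjusted p 0.00731). Its second probe gave -0.24 (adjusted p 0.341), so that the probes disagreed. Gpx4, which reduces lipid peroxides, was lower by a log2 difference of -0.62 (adjusted p 0.0236), and its call was lost without rapamycin 2, rapamycin 3, BA+rapamycin 2 or BA+rapamycin 3 (adjusted p 0.0609 to 0.0852).

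**Figure D5:**
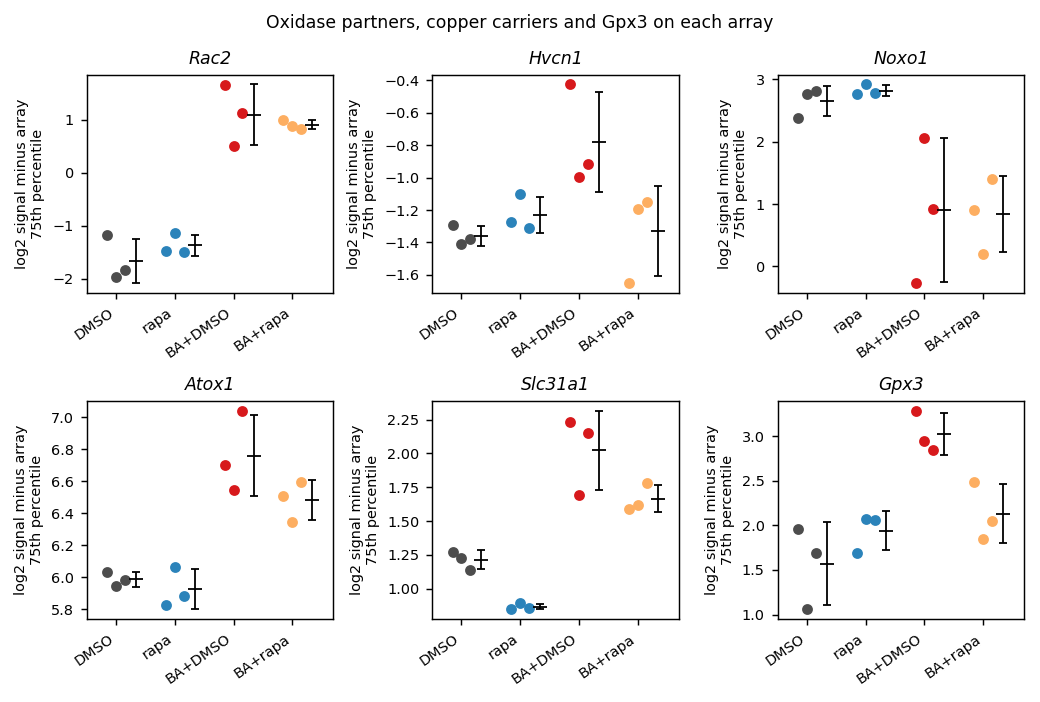
Log2 processed signal minus the array's 75th percentile for 6 genes of the pathway lists on each array, with the mean ± SD of 3 arrays. Rac2, Atox1 and Slc31a1 are higher and Noxo1 lower on challenged arrays of both treatments, and Gpx3 is highest in BA+DMSO.

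Another question was whether these genes differed with rapamycin. In challenged aortas (BA+rapamycin minus BA+DMSO), no member was called, against 0.305% of all genes, and 1 member had an unadjusted p under 0.05. Among all probes 20.1% had an unadjusted p under 0.05. That member was Nox4, which differed by -0.71 on its brightest probe (SE 0.30, unadjusted p 0.0361, adjusted p 0.227) and by -0.31 (adjusted p 0.57) without BA+DMSO 3. The groups did not overlap on that probe but overlapped on the other 2 Nox4 probes, which differed by -0.66 and -0.37. The phagocyte subunits differed by 0.09 for Cybb, 0.10 for Ncf1, 0.34 for Ncf4 and -0.20 for Cyba, with adjusted p between 0.38 and 0.868. The 95% confidence intervals were -0.63 to 0.82 for Cybb, -0.43 to 0.63 for Ncf1, -0.17 to 0.86 for Ncf4 and -0.51 to 0.11 for Cyba. Sod1 differed by -0.28 (adjusted p 0.32), Sod2 by -0.58 (adjusted p 0.295) and Sod3 by 0.30 (adjusted p 0.342). Without BA+DMSO 2, Nox1 (1.70, adjusted p 0.0113, against 1.05 and 0.277 with it) and Sod2 (-0.94, adjusted p 0.0166) were called, in a setting that called 11151 of all 28239 probes. Without BA+DMSO 3, by contrast, Sod2 differed by -0.21 (adjusted p 0.801).

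In unchallenged aortas (rapamycin minus DMSO) no member was called either, against 0.00499% of all genes, and 1 member, Ncf1, had an unadjusted p under 0.05, as did 4.27% of all probes. Ncf1 was higher on every rapamycin array than on any DMSO array, by 0.66 (SE 0.24, unadjusted p 0.0187, adjusted p 1.00). Nox4 was higher on every rapamycin array too, by 0.56 on its brightest probe (SE 0.30, adjusted p 1.00) and by 0.66 on the spliced one (SE 0.22, adjusted p 0.938). Nox1 differed by -0.81 (adjusted p 1.00), and the other 6 members by -0.23 to 0.48. Some blood cell markers lay higher with rapamycin here too, though 0 were called. These were 9 of 10 macrophage (median 0.45), 6 of 6 neutrophil (0.55) and 4 of 4 red cell markers (1.47). Of 3 lymphocyte markers 0 lay higher (median -0.27). Their part in the values of the members was not tested. The interaction, which asks whether rapamycin acted differently in challenged aortas, was called for no member and for 0% of all genes, and 2 members had an unadjusted p under 0.05, as did 6.12% of all probes. These were Nox4 (-1.27, SE 0.42, unadjusted p 0.0115, adjusted p 0.735) and Nox1 (1.86, SE 0.74, unadjusted p 0.0292, adjusted p 0.737). The contrasts share groups, so that their values are not independent of each other.

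Slides limited the contrasts unequally. No slide held both DMSO and BA+DMSO arrays, and in the fit with slide as a block, where only the rapamycin group linked the slides, no member and 15 of all 27801 probes were called with vehicle. In that fit the differences were 2.63 for Ncf1, 3.01 for Ncf4, 1.33 for Cybb, 0.49 for Cyba and -1.70 for Nox4, with adjusted p of 0.0535 to 0.563. The calls with vehicle for the other genes named were lost in that fit too, with 2.58 for Rac2 (adjusted p 0.147), -1.84 for Noxo1 (0.504), 1.07 for Gpx3 (0.456), 0.79 for Slc31a1 (0.429) and 0.62 for Atox1 (0.521). Atox1 also lost its call with rapamycin there (0.51, adjusted p 0.0793). With slide as a random block all 5 members kept their calls, and 10270 probes were called. Adjusted p were 1.2e-05 for Ncf1, 8.8e-06 for Ncf4, 0.00086 for Nox4, 0.00059 for Cybb and 0.0019 for Cyba. The correlation within slides was estimated as negative (-0.133), which narrows the errors of a contrast between slides. That fit therefore cannot show whether the calls withstand a difference between slides. The contrast of the challenge under rapamycin could be read within slide 2, with rapamycin 2 and 3 against the 3 BA+rapamycin arrays. There Ncf4 rose by 2.84 (adjusted p 0.00214), Ncf1 by 2.03 (adjusted p 0.00253), Nox1 by 2.04 (adjusted p 0.00947) and Cybb by 1.16 (adjusted p 0.0396). Nox4 was lower (-2.82, adjusted p 0.00229), as were Sod1 (-0.78, adjusted p 0.0112) and Sod2 (-0.91, adjusted p 0.0202). All arrays of BA+DMSO and BA+rapamycin lay on slide 2. Within slide 1, the single rapamycin array differed from the mean of the 3 DMSO arrays by 0.71 for Ncf1 and 0.41 for Nox4. A group of 1 array has no spread of its own, so only the differences are given.

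The genes with the most similar profiles were sought over the 12 arrays by the root mean square difference of log2 values, each gene centred on its own mean. They were Itgb2, Vav1 and C5ar1 for Ncf1 (0.20 to 0.23, where the spread of Ncf1 itself was 1.19) and Coro1a, Bcl2a1d and Cd52 for Ncf4 (0.21 to 0.26, spread 1.40). Itgb2 is the beta chain of leukocyte integrins and Coro1a an actin-binding protein of blood cells. For Cybb they were Syk, Naip2 and Pstpip1 (0.26 to 0.28, spread 0.83). For Nox4 they were Serpini1, Cdnf and Gucy1b3 (0.23 to 0.25, spread 1.15), of which Gucy1b3 encodes a subunit of the nitric oxide receptor of smooth muscle. Sod1 lay nearest to Gtpbp1, Dctn4 and Dnajc30 (0.06 to 0.07, spread 0.32) and Sod2 to Slc41a3, Fam188a and Gfm1 (0.07 to 0.10, spread 0.51). Nox1 lay nearest to Hoxa10, Pak6 and Sox5 (0.33 to 0.36, spread 0.98), Cyba to Hgsnat, Gdi2 and Ogfr (0.091 to 0.095, spread 0.24) and Sod3 to Nr1h2, Zfyve27 and Polrmt (0.077 to 0.096, spread 0.20). These are descriptions of 12 arrays in 4 groups with no test.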

How the data were processed

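RNA of the aorta was measured on 12 one-colour Agilent mouse arrays, grouped by the treatment that the labels give. The labels do not say from how many animals a sample came, so p-values measure the spread between these samples. Each deposited scanner file holds 62976 spots (3671 controls). The deposited processed signals are linear intensities, already corrected for background by Feature Extraction 10.7.1.1 (9.5.1.1 in the submitters' processing notes), the spot mean and local background are intensities, and spots carry flags (0 or 1), deposited as other values, for outliers and for signal well above background. The deposited matrix holds intensity that was quantile normalized, as judged from its values. Array coordinates are mm9.

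Signals were put on the log2 scale, outlier spots removed, spots of a probe averaged and the 75th percentile of the array subtracted. A probe was tested (27801 of 55681) if a share of 0.5 or more of its spots exceeded background clearly on each of the 3 arrays of some group. One limma 3.58.1 model (R 4.3.3) with 4 group means gave two-sided p-values, adjusted by Benjamini-Hochberg over all tested probes in each contrast, with calls at an adjusted p under 0.05. A gene stood by its tested probe with the highest mean. The fit was tested on simulated data. The number of arrays limits the precision. The members and lists were chosen with earlier results of these data known. All members, oxidase partners and copper genes could be named, the 3 most changed among called peroxide enzymes per direction and contrast, and the 3 nearest profiles of a member. Alternatives were other normalizations, filters, probes, fits, blocks and leaving out each array, with a second call rule from the methods of the paper, an unadjusted p under 0.01 with a fold over 4 or under 0.25. One further partner gene is not reported here. The common floor was chosen after seeing the data.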

Additional observations from a re-analysis of the deposited data

Results flagged for a closer look

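On the brightest Nox4 probe, every rapamycin array was above every DMSO array, while every BA+rapamycin array was below every BA+DMSO array, and the interaction was -1.27 (SE 0.42, limma adjusted p 0.735). Sod1 showed the same opposed order, with an interaction of -0.40 (SE 0.23, limma adjusted p 0.737). Neither interaction passed the threshold over all probes. The share of all genes with such an opposed order was not counted, so it is not known whether these genes stand out. On the other 2 Nox4 probes BA+rapamycin and BA+DMSO arrays overlapped. On the spliced one the interaction was -1.03 (SE 0.31, limma adjusted p 0.658). Groups of 3 arrays were not tested for outlying arrays.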

How the results depend on the processing

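In 31 alternative settings the 11 member calls were retested 321 times, kept in 296, lost in 25 and turned in none. Nox4, Ncf1 and Ncf4 with the challenge under rapamycin kept their calls in all 30 settings run for each. With the challenge under vehicle, 5 members were called. The count was 2 when only the groups compared were fitted, where Cybb did not pass the filter and had no value. It was 2 by the second call rule, 0 with slide as a fixed block, and 4 to 7 when each array was left out. With the challenge under rapamycin 6 were called, 3 with array brightness as a covariate (Nox4, Ncf1 and Ncf4) and 5 to 8 when each array was left out. Gene-by-gene array weights gave 2 calls for rapamycin under challenge (Sod2 and Sod3), 1 for rapamycin alone (Ncf1) and 1 for the interaction (Ncf1), each against 0, where 7094, 535 and 929 of all 27801 probes were called. Leaving out each array gave 0 to 2 calls for rapamycin under challenge and 0 to 1 for the interaction (Nox1), both highest without BA+DMSO 2 (where 11151 and 2933 of all 28239 probes were called), and 0 for rapamycin alone. The cause was not tested.

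Values that changed sign were not called in either setting, apart from Cat (-0.19) and Gpx4 (0.014) for the challenge under rapamycin with brightness as a covariate. With that covariate Nox1 (-0.86) and Sod2 (0.22) turned for the challenge, Cybb (-0.022) for rapamycin under challenge and Sod2 (0.39) for the challenge under rapamycin. For rapamycin under challenge, quantile normalization turned Cybb (-0.10) and Sod3 (-0.025), the deposited matrix did so too (-0.10 and -0.018), array weights turned Cybb (-0.33), Ncf1 (-0.37) and Ncf4 (-0.020), and the title date as a block turned Ncf1 (-0.10). With slide as a fixed block Nox1 was -0.055 for the challenge. For the challenge under rapamycin, normexp (-0.13) and the mean of all probes (-0.20) turned Cyba, and the percentile over detected probes (0.15) and the title date (0.040) turned Sod3. Leaving out each array gave -0.35 to 0.89 for Nox1 (challenge), -0.12 to 0.29 for Cybb (rapamycin under challenge), -0.048 to 0.40 for Ncf1 (rapamycin under challenge) and -0.085 to 0.013 for Sod3 (challenge under rapamycin).

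Titles of 3 pairs of arrays share a date and number, but their deviations correlated at 0.087, 0.17 and -0.355, so the numbers were not taken to pair the samples. With that replicate block 5 and 7 members were called for the challenge under vehicle and under rapamycin, against 5 and 6, and 0 for the other contrasts. Arrays that share a title date, also across groups, correlated at 0.496 within the fit. With the date as a random block the same counts were 5 and 7, the added call being Sod2 (-0.91, adjusted p 0.042). The titles of BA+DMSO 2 and BA+DMSO 3 carry no date, so the labels do not say which block these arrays belong to. Brightness was lower on most challenged arrays, so its covariate can also take up the challenge. Over all probes the challenge gave 15 to 12803 calls in the alternatives, and rapamycin under challenge 0 to 11151.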
